A study of Mus musculus with 8 samples.

Results

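The ectodysplasin pathway is described here in the uterus of 10-day-old mice through 5 genes. These are the ligand gene Eda, the receptor genes Edar, Eda2r and Tnfrsf19, and the adaptor gene Edaradd. They were taken by symbol from 27179 genes with counts, and all 5 were among the 16658 genes that passed the filter on low counts. The set was selected on values of the same genotype comparison that is described below, because Eda2r was differentially expressed in it, so the differences between genotypes for these genes are given as a description and without a test. RNA-seq was performed on whole uteri collected at postnatal day 10 (PD10), with 4 control and 4 Ezh2 conditional knockout (cKO) libraries, to examine what the loss of EZH2 does to the developing uterus. EZH2 is the enzyme of the Polycomb repressive complex that methylates lysine 27 of histone H3. Control mice carried floxed Ezh2 alleles (Ezh2 f/f) without Cre recombinase, and cKO mice carried the same alleles with Cre expressed from the Amhr2 locus (Ezh2 f/f; Acre), both on a C57BL/6/129SvEv background. Amhr2-Cre is active in mesenchyme-derived uterine cells, so the epithelium keeps its Ezh2 alleles and a whole uterus holds a mixture of recombined and unrecombined cells.

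Ectodysplasin is a trimeric ligand of the tumor necrosis factor (TNF) family that is cut from the cell surface by furin. Its splice form EDA-A1 binds EDAR, which recruits the adaptor EDARADD and activates NF-kB, and this axis is best known for the formation of hair follicles, teeth and sweat and mammary glands from epithelial placodes. The splice form EDA-A2 binds EDA2R, also called XEDAR, which signals through TRAF proteins without EDARADD, and the gene is a known target of p53. TNFRSF19, also called TROY, resembles EDAR in sequence and is a known target of WNT signaling. Counts per gene do not separate EDA-A1 from EDA-A2.

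Between 25287141 and 36685807 reads were counted on genes per library, and levels are given as CPM, counts scaled to a common library size and adjusted for library composition with the trimmed mean of M-values (TMM), unless a level per exon length is named. A gene without reads could still be present at up to 3 counts, or 0.0824 to 0.117 CPM in these libraries, which takes in counting error alone. A negative log2 fold change is a lower level in cKO. Ezh2 itself had 45.0 ± 8.70 CPM in control and 36.8 ± 4.41 CPM in cKO libraries (SD, n = 4 each), the genotypes overlapped, and its log2 fold change was -0.29 ± 0.13 (SE) with an edgeR adjusted p of 0.247. The floxed part of Ezh2 covers only some exons and reads on the others were counted too, so this level does not measure the deletion. The study reported allele recombination, lower Ezh2 mRNA and weaker EZH2 staining of stromal cells in cKO uteri. Summed markers of epithelium ranged over 1166 to 1394 CPM in control and 1320 to 1620 CPM in cKO libraries, and those of smooth muscle at 7172 to 9096 and 7978 to 9099 CPM, so the defining markers of the labelled tissue were present in all 8 libraries. Summed fat markers were raised most in 3 of the 4 cKO libraries, as given beside Eda2r below. The remaining one, cKO 4, stood apart from its group. Its counts differed from those of control 4 and control 3 by a chi-square per gene of 11.9 and 14.1, less than from the other cKO libraries (17.9 to 20.1). From control 1 and control 2 they differed by 18.1 and 24.1. Control libraries also differed among themselves, with 21.3 between control 2 and control 3.

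Start regions of 3 members are shown because Eda2r, the member that differed between genotypes, and Eda, its neighbor and ligand gene, differ in their content of CpG, the dinucleotide that is dense in many mammalian promoters, and because Edar is the receptor for the other splice form. Each sequence holds the 250 bases before the start that RefSeq gives on GRCm38.p6, written 5′ to 3′ on the strand of the gene, and the capitals mark CpG. The Eda2r window is chrX:97377210-97377459 on the minus strand, the Eda window is chrX:99975356-99975605 on the plus strand, and the Edar window is chr10:58675697-58675946 on the minus strand.
Eda2r: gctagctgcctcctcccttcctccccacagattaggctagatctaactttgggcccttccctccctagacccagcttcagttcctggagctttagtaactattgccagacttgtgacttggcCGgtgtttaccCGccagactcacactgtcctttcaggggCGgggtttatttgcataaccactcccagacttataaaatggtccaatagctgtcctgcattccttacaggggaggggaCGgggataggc
Eda: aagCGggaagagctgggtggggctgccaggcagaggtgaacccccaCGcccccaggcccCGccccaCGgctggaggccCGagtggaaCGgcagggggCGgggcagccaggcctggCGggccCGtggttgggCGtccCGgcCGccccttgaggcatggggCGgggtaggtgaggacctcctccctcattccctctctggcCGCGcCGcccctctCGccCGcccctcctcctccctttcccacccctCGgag
Edar: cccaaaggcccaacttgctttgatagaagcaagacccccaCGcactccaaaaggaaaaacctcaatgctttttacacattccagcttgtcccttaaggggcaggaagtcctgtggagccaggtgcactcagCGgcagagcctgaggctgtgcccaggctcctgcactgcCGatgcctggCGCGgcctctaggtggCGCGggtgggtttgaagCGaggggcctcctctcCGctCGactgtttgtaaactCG
The Eda2r window held 4 CpG, more than 37.8% of the 32851 start regions in the same table, whose median was 6. The Eda window held 19 CpG, more than 80.3% of start regions, and the Edar window held 11, more than 64.4%. The GC content was 53.2% for Eda2r, 75.6% for Eda and 58.8% for Edar, against a median of 52.4%. The windows of Edaradd (8 CpG) and of both starts of Tnfrsf19 (8 and 9 CpG) lay between those of Eda2r and Eda in CpG count, but Edaradd (46.0%) and 1 Tnfrsf19 window (50.0%) had a lower GC content than Eda2r.

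Searched on both strands, the Eda2r window held the TATA box letters TATAAA once, 58 bases before the start, and 12.4% of all start regions hold them. The last 25 bases of this window lie inside the span that RefSeq gives for the whole gene, and counted from the end of that span the match is 33 bases upstream. The window held none of the E-box CACGTG (6.0% of start regions), the TCF/LEF core CTTTGA (13.8%), the p53 half-site consensus (7.1%) or the NF-kB consensus (3.9%). CTTTGA was found in the Edar window and in 1 of the Tnfrsf19 windows, which also held CACGTG. These are matches of letters in a short window.

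Eda, the ligand gene (Entrez 13607, chrX:99975606-100400760 of GRCm38), was at 25.7, 28.4, 24.6 and 22.3 CPM in control libraries 1 to 4 and at 23.7, 26.4, 22.6 and 24.6 CPM in cKO libraries 1 to 4. The genotypes overlapped, and the highest and the lowest value were both in control libraries. The means were 25.3 ± 2.54 and 24.3 ± 1.62 CPM (SD, n = 4 each), with a log2 fold change of -0.05 ± 0.08 (SE, 95% interval -0.24 to 0.13). The interval does not reach the Eda2r value of -1.29. Annotated pseudogenes (Gm14832, Gm14829 and Gm14828) and a microRNA gene lie inside Eda on the same strand, and reads shared with them were not separated.

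Edar, the receptor for EDA-A1 (Entrez 13608, chr10:58600780-58675696), was a low-expressed gene at 5.52, 5.34, 6.39 and 6.29 CPM in control libraries 1 to 4. In cKO libraries 1 to 4 it was at 5.63, 6.26, 5.95 and 6.16 CPM, and all 4 values lay inside the control range. The means were 5.88 ± 0.531 and 6.0 ± 0.279 CPM, with a log2 fold change of 0.03 ± 0.11 (SE, 95% interval -0.22 to 0.28). These levels rest on 138 to 229 counts per library.

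Edaradd, which couples EDAR to NF-kB signaling (Entrez 171211, chr13:12471209-12520535), was the lowest member. It was at 3.00, 5.30, 3.53 and 3.32 CPM in control libraries 1 to 4 and at 4.08, 5.39, 4.71 and 4.45 CPM in cKO libraries 1 to 4. Every cKO library was above 3 of the control libraries, but control 2 stood within the cKO range, so the genotypes overlapped. The means were 3.79 ± 1.03 and 4.66 ± 0.553 CPM, and the log2 fold change was 0.31 ± 0.18 (SE, 95% interval -0.09 to 0.70). Without control 2 it was 0.51. Edaradd was also the member with the widest spread among control libraries, with a coefficient of variation of 27.2% against 15.3% for Eda2r, the next highest.

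Eda2r, the receptor for EDA-A2 (Entrez 245527, chrX:97333837-97377234), was the member that differed. It was at 52.6, 53.2, 41.2 and 39.9 CPM in control libraries 1 to 4 and at 16.4, 19.6, 15.1 and 25.3 CPM in cKO libraries 1 to 4. Every cKO library was below every control library, and cKO 4 was the highest of the cKO libraries. The means were 46.7 ± 7.17 and 19.1 ± 4.55 CPM (SD, n = 4 each), 2.45-fold higher in control uteri, and the values that chose it were a log2 fold change of -1.29 ± 0.16 (SE, 95% interval -1.65 to -0.93) and an edgeR quasi-likelihood adjusted p of 0.00144. These levels rest on 423 to 1668 counts per library, and no annotated gene overlaps Eda2r. In whole tissue, fewer cells that express a gene and less RNA per cell cannot be told apart.

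Tnfrsf19, the EDAR-related receptor (Entrez 29820, chr14:60963834-61046855), was the most abundant member at 239.9, 228.2, 261.7 and 260.4 CPM in control libraries 1 to 4. In cKO libraries 1 to 4 it was at 211.0, 217.8, 246.2 and 235.5 CPM. The genotypes overlapped, with cKO 1 and cKO 2 below every control library. The means were 247.5 ± 16.3 and 227.6 ± 16.1 CPM and the log2 fold change was -0.12 ± 0.07 (SE, 95% interval -0.27 to 0.02). A long noncoding RNA gene on the opposite strand, Gm41168, overlaps Tnfrsf19, and the strand setting of the counting is not given in the sources used here.

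**Figure D1:**
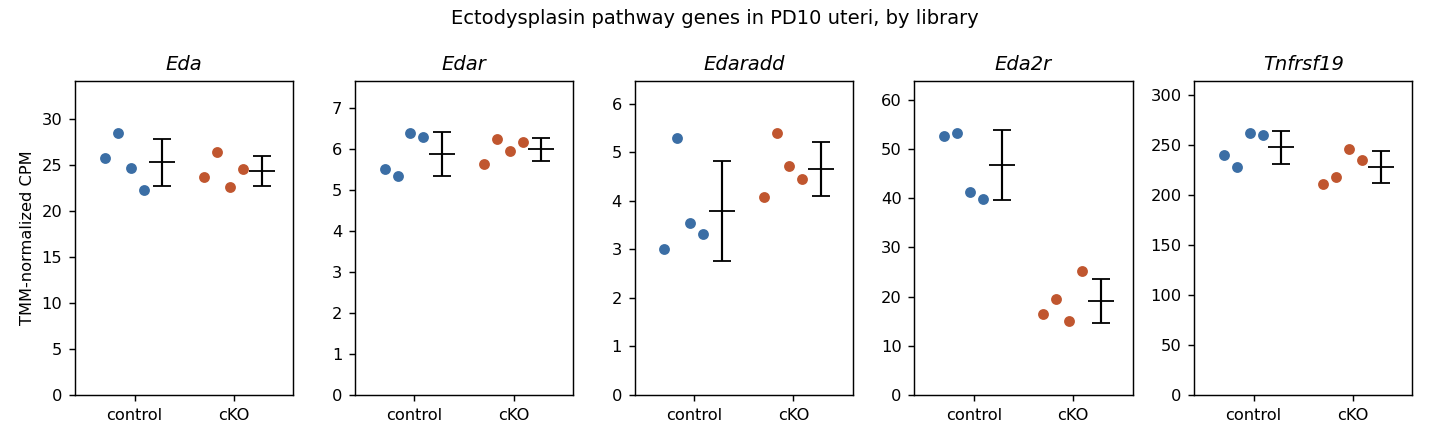
TMM-normalized CPM of the 5 members in each library, on a linear axis from 0 with its own range per gene. Points are libraries 1 to 4 from left to right (blue control, orange cKO) and bars give the mean ± SD (n = 4). Eda2r separates the genotypes, with control libraries at 39.9 CPM or above and cKO libraries at 25.3 CPM or below, and the other 4 members overlap.

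Of the 5 members, 1 had a fold change over 2 with an edgeR adjusted p under 0.05, and among all genes tested 1.3% did (217 of 16658). The same gene was the 1 member whose genotypes did not overlap, against 12.3% of all genes tested. Since the set was chosen with this comparison in view, nothing is read from these counts. The median log2 fold change was -0.05 over the members and 0.000440 over all genes tested, and 98.4% of genes tested had a smaller absolute log2 fold change than Eda2r.

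Per kilobase of exon, Tnfrsf19 was the highest member in control libraries at 52.2 ± 3.44 CPM per kb (SD, n = 4). Eda2r followed at 7.93 ± 1.22 CPM per kb, then Eda at 3.70 ± 0.372, Edar at 1.62 ± 0.146 and Edaradd at 0.568 ± 0.155 CPM per kb. No neighbors in this order overlapped among the control libraries. In cKO libraries Tnfrsf19 was at 48.0 ± 3.4 CPM per kb, while Eda (3.56 ± 0.237) and Eda2r (3.24 ± 0.772) could no longer be ordered, because Eda2r ranged from 2.56 to 4.29 CPM per kb around the Eda values. Edar (1.65 ± 0.0766 CPM per kb) and Edaradd (0.698 ± 0.0829 CPM per kb) kept their places below.

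**Figure D2:**
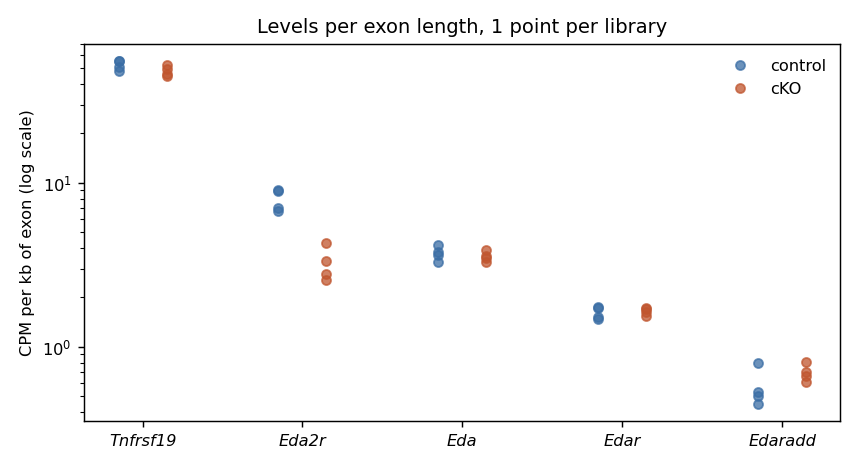
CPM per kilobase of exon for each member on a log axis, with 1 point per library (blue control, orange cKO, n = 4 each) and genes ordered by their control mean. Eda2r lies above Eda in every control library, and in cKO libraries the ranges of both genes overlap near 3 CPM per kb.

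The RNA levels of the receptors were also compared as ratios within each library. The Eda2r level per kilobase was 4.99 ± 1.2 times that of Edar in control libraries (range 3.91 to 6.16) and 1.96 ± 0.413 times in cKO libraries (range 1.56 to 2.53). Relative to its ligand gene, Eda2r was at 2.14 ± 0.180 times the Eda level per kilobase in controls and at 0.907 ± 0.194 times in cKO libraries. Both ratios separated the genotypes, and both contain the Eda2r values that chose it. The ratios that leave Eda2r out overlapped, with Eda over Edar at 2.32 ± 0.428 in control and 2.16 ± 0.107 in cKO libraries and Edaradd over Edar at 0.357 ± 0.123 and 0.423 ± 0.0361.

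Several cell type markers moved with genotype beside Eda2r, and their counts below stand beside 2.71% of all genes tested that fell and 2.62% that rose by edgeR. Fat markers summed to 2.52 to 4.53 CPM in control libraries and to 92.8, 216.9, 104.9 and 4.69 CPM in cKO libraries 1 to 4, so most of the fat signal was in cKO 1 to 3. Of the 9 fat markers, 7 were tested, all 7 had positive log2 fold changes, and 1 had an adjusted p under 0.05 by edgeR. Adipoq, the adiponectin gene, was at 0.0350 CPM in cKO 4 and between 11.7 and 23.7 CPM in the other cKO libraries. The 1 called marker, the adrenergic receptor gene Adrb3, was at 2.10 CPM in cKO 4 and at 0.915 to 1.18 CPM in control libraries, so it was higher in cKO 4 as well. In cKO 4, where the fat marker sum was 4.69 CPM, Eda2r was at 25.3 CPM, below the lowest control library at 39.9 CPM. With cKO 4 as the single cKO library the log2 fold change of Eda2r was -0.88 ± 0.19 (SE), which is under a 2-fold change. Without cKO 4 it was -1.46. Once genotype means were subtracted, Eda2r had a Pearson r over the 8 libraries of -0.62 with the fat marker sum and 0.62 with gland markers. The r was 0.54 with skeletal muscle, -0.50 with mesothelium, 0.33 with smooth muscle, 0.31 with T and B cell and 0.26 with NK cell markers. For the other marker lists it was smaller in size. These values are a description of points that share their libraries.

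The gland markers Foxa2 and Cxcl15 summed to 3.87 to 8.05 CPM in control and 0.216 to 0.904 CPM in cKO libraries, and both were lower with an edgeR adjusted p under 0.05. Markers of natural killer (NK) cells summed to 8.21 to 13.3 and 1.94 to 3.96 CPM, and 6 of 6 were lower at this threshold. No marker of either list was at 0 in any library. Of the skeletal muscle markers, 2 of 6 tested were higher in cKO by edgeR, Myh3, an embryonic myosin gene (log2 fold change 4.08, adjusted p = 0.0039), and Tnnt3, a fast troponin gene (0.80, adjusted p = 0.030). The sum of this list overlapped, at 54.4 to 90.2 CPM in control and 52.1 to 77.0 CPM in cKO libraries. Its most abundant marker, Acta1, was the 1 of 6 tested with a negative log2 fold change (-0.13). The myogenic factor genes Myod1 and Myog, under the filter, had 0 to 1 counts in each control library and 4 to 35 in each cKO library. The Schwann cell marker Sox10 was the 1 of 5 that was higher (log2 fold change 0.92, adjusted p = 0.041 by edgeR). Among the stroma markers, 2 of 8 were lower and 1 higher, and the sum ranged from 8679 to 11253 CPM in control and from 10212 to 13022 CPM in cKO libraries. The part of any of these cell types in the Eda2r difference was not tested.

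**Figure D3:**
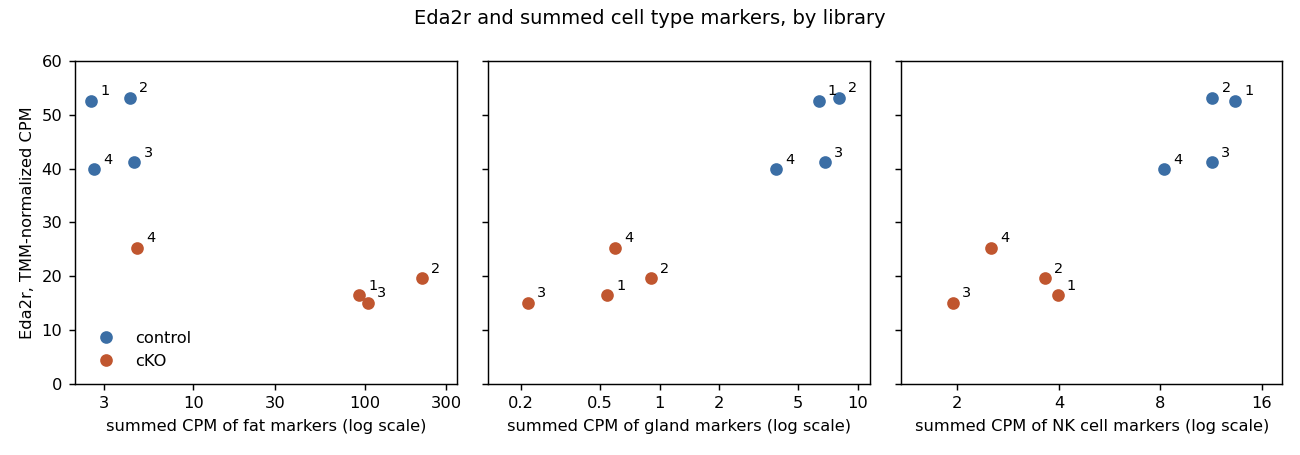
Eda2r in TMM-normalized CPM against the summed CPM of fat, gland and NK cell markers (log axes), with 1 numbered point per library. The 4 cKO libraries (orange) lie at 15.1 to 25.3 CPM of Eda2r on both sides of the gap in fat markers, since cKO 4 has 4.69 CPM of fat markers, and gland and NK cell markers are lower in all 4 cKO libraries.

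Eda2r and Eda are both on the X chromosome, 2598372 bases apart with 7 tested genes between them, and the genes around them were compared to see whether the difference extended along the chromosome. On the lower-coordinate side, the nearest tested genes to Eda2r were Gpr165, an orphan receptor gene, Heph, the iron oxidase hephaestin, and Hsf3, a heat shock factor gene, with log2 fold changes of -0.02, -0.05 and 0.27. On the other side, Yipf6 had a log2 fold change of 0.01, with 48.1 ± 2.39 CPM in control libraries and 48.5 ± 2.92 CPM in cKO libraries. None of these 4 genes had an adjusted p under 0.05 by edgeR.

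Around Eda, the tested genes before it were Pja1 (-0.16), Gm14812 (-0.81) and Efnb1 (-0.17), and those after it were Awat2 (-0.23), Igbp1 (-0.14) and Pdzd11 (0.01), given as log2 fold changes, and none had an adjusted p under 0.05 by edgeR. Within 3.5 Mb of Eda2r on either side, 1 of the 32 other genes reported here passed this threshold. That gene, Gdpd2, named after its values were seen, was higher in cKO with a log2 fold change of 0.95. Over all 34 other tested genes of this window, including those not reported singly, the libraries of the genotypes did not overlap for 8, of which 7 were lower and 1 higher in cKO, where 12.3% of all genes tested did not overlap. The 7 lower genes were Zc4h2, Las1l, Efnb1, Gm14812, Pja1, Igbp1 and Dlg3, with log2 fold changes from -0.81 to -0.14, and none had an adjusted p under 0.05 by edgeR. Those not mentioned above were named after their values were seen.

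**Figure D4:**
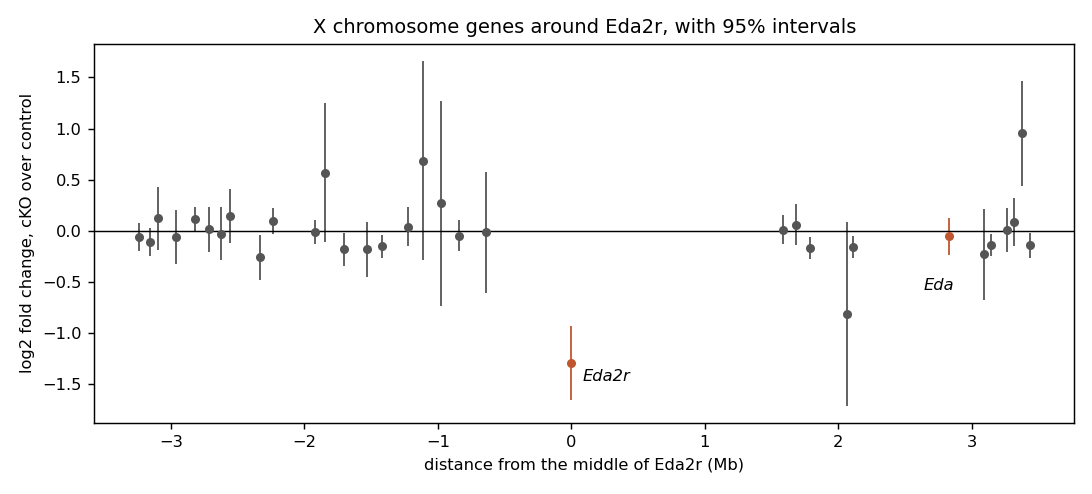
Log2 fold change (cKO over control) of the tested X chromosome genes reported here within 3.5 Mb of Eda2r, with 95% intervals from the edgeR fit, by distance in Mb between gene midpoints. Eda2r at -1.29 lies below the 32 other genes, which range from -0.81 to 0.95, and Eda lies near 0.

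The genes that carry the signal inward from these receptors were examined next. All 23 listed genes for EDA signal transduction (furin, TRAF and TAB proteins, the IKK complex, inhibitors and subunits of NF-kB) were tested, and 0 fell and 1 rose with an adjusted p under 0.05 by edgeR, where 2.71% of all genes tested fell and 2.62% rose. The gene that rose was Tab1, which links receptor complexes to the kinase TAK1. It was at 43.0 ± 1.54 CPM in control libraries and 50.3 ± 2.58 CPM in cKO libraries, a log2 fold change of 0.22 ± 0.06 (SE, adjusted p = 0.048 by edgeR). This call held in 1 of the 8 fits that left out a library, with adjusted p-values of up to 0.149. The log2 fold changes of the list ranged from -0.17 to 0.22 with a median of 0.00, beside 0.000440 over all genes tested, and 3 of the 23 genes did not overlap between genotypes, near the 12.3% of all genes tested.

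Genes of ectodermal placodes, where the EDA-EDAR axis is best known, include WNT, BMP and FGF signals and their transcription factors. Of 20 listed genes, 13 were tested, 3 fell and 0 rose by edgeR, where 2.71% of all genes tested fell and 2.62% rose. The median log2 fold change was -0.41, and 4 genes did not overlap between genotypes, against 12.3% of all genes tested. Pthlh, which encodes parathyroid hormone-like hormone, a regulator of mammary bud mesenchyme, was at 6.66, 7.23, 9.31 and 7.63 CPM in control libraries 1 to 4 and at 2.25, 3.21, 3.20 and 4.76 CPM in cKO libraries 1 to 4. The genotypes did not overlap, and Pthlh was the 1 gene of the list that also passed the 2-fold threshold, with a log2 fold change of -1.19 ± 0.20 (SE, adjusted p = 0.0038 by edgeR).

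Lef1, a transcription factor of WNT signaling, fell from 20.6 ± 2.40 to 14.1 ± 0.936 CPM, a log2 fold change of -0.54 ± 0.09 (SE, adjusted p = 0.0054 by edgeR). Bmp4, a secreted growth factor of mesenchyme, fell from 22.6 ± 2.08 to 16.4 ± 1.22 CPM, with a log2 fold change of -0.46 ± 0.09 (SE, adjusted p = 0.0097 by edgeR). All 3 calls held in all 8 fits that left out a library. With cKO 4 as the single cKO library, a comparison with less power in which 0 of the calls held, the log2 fold changes were -0.55 for Lef1, -0.53 for Bmp4 and -0.69 for Pthlh, so Lef1 and Bmp4 were as low there as in the whole group. The 7 genes under the filter were Wnt10a, Wnt10b, Dkk4, Shh, Fgf20, Lta and Cxcl11. The cells that express Pthlh, Lef1 and Bmp4 in this tissue were not determined, and the list was not a measure of placodes in the uterus.

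Known targets of p53 were listed because Eda2r is 1 of them, and Eda2r was left out of the list. Of 30 listed genes, 30 were tested and 0 had an adjusted p under 0.05 by edgeR, against 2 by DESeq2, while 5 had an unadjusted p under 0.05 (3 lower and 2 higher). By edgeR, 2.71% of all genes tested fell and 2.62% rose, DESeq2 called 9.04%, and 9.86% were lower and 11.4% higher with an unadjusted p under 0.05, so the counts of this list are near or under these shares. The smallest p was that of Perp, a cell adhesion and apoptosis gene, at 42.5 ± 3.51 CPM in control libraries and 52.7 ± 6.85 CPM in cKO libraries (log2 fold change 0.31 ± 0.09, adjusted p = 0.072 by edgeR). The most abundant, Ei24, was at 147.8 ± 5.88 and 137.3 ± 4.08 CPM. Single genes of the list had log2 fold changes between -0.39 and 0.38, with a median of -0.01.

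Of 25 other TNF receptor genes, 24 were tested, and 2 fell and 0 rose by edgeR, beside 2.71% and 2.62% of all genes tested. DESeq2 called 3, and 6 had an unadjusted p under 0.05, 2 of them lower and 4 higher in cKO, beside the 9.04%, 9.86% and 11.4% of all genes tested for DESeq2 calls and for lower and higher genes at the unadjusted threshold. The median log2 fold change was 0.08. Tnfrsf9, the costimulatory receptor 4-1BB of lymphocytes, fell from 1.5 ± 0.123 to 0.835 ± 0.0970 CPM (log2 fold change -0.84 ± 0.20, adjusted p = 0.031 by edgeR). Tnfrsf14, the receptor HVEM, fell from 6.0 ± 1.72 to 3.52 ± 0.414 CPM (log2 fold change -0.76 ± 0.19, adjusted p = 0.038 by edgeR). Both were under the 2-fold threshold. The calls held in 2 and 3, respectively, of the 8 fits that left out a library. With cKO 4 as the single cKO library the log2 fold changes were -1.02 and -0.74, and neither passed the test at that sample size.

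Of 17 other TNF ligand genes, 10 were tested and 0 had an adjusted p under 0.05 by edgeR or DESeq2, while 3 had an unadjusted p under 0.05, all lower. In a list this short, 0 calls is near the share of all genes tested (2.71% lower and 2.62% higher), and 9.86% of all genes tested were lower with an unadjusted p under 0.05. The smallest p was that of Tnfsf15, the ligand TL1A, at 0.781 ± 0.249 CPM in control libraries and 0.471 ± 0.118 CPM in cKO libraries, and the most abundant was Tnfsf10, which encodes TRAIL, at 56.2 ± 9.16 and 47.1 ± 4.63 CPM. Over the 10 tested ligand genes the median was -0.23 on the log2 scale.

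**Figure D5:**
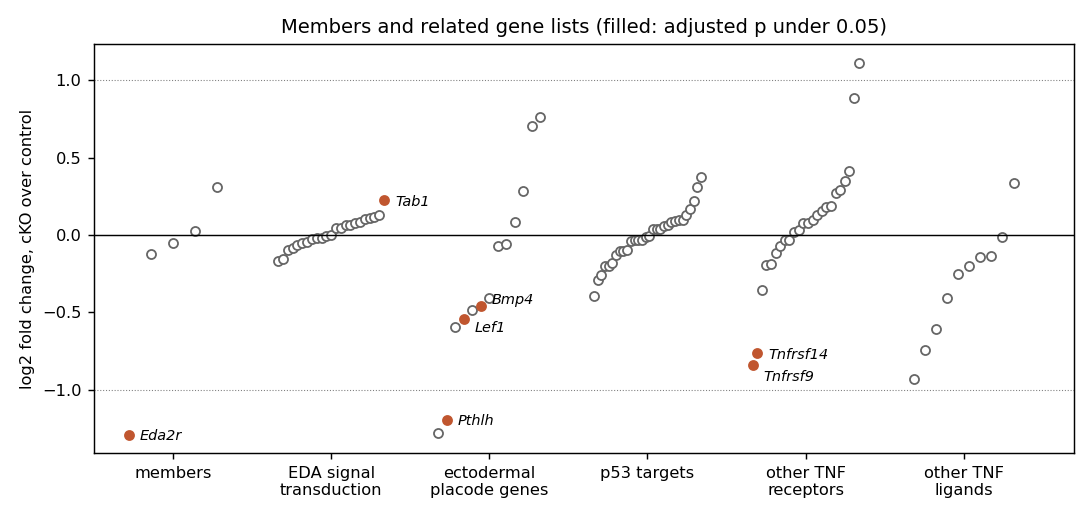
Log2 fold change (cKO over control) of the 5 members and of every tested gene of 5 related lists, with 1 circle per gene. Filled circles have an adjusted p under 0.05 by edgeR and are named, and dotted lines mark a 2-fold change. Eda2r (-1.29) and Pthlh (-1.19) are the filled circles past a 2-fold change.

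The genes most like Eda2r across the 8 libraries, by Pearson r over log2(CPM + 0.1) among 14456 genes with a mean of at least 1 CPM, were Jazf1 (r = 0.99), Map4k3 (r = 0.99), Pknox2 (r = 0.99), Asl (r = 0.99) and Dab1 (r = 0.99). All of these values share the genotype difference and the same 8 libraries. After the genotype means were subtracted, the highest were Vapa (r = 0.98), Rnft1 (r = 0.98), Yod1 (r = 0.97), Gm10336 (r = 0.96) and Map4k3 (r = 0.96), so that Map4k3, a kinase gene, was in both lists. The values are descriptions of 8 libraries, chosen as the highest of many genes.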

How the data were processed

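RNA-seq libraries (TruSeq stranded mRNA) of whole PD10 uteri were compared between 4 control and 4 cKO samples, named in the labels. Per the labels and the methods of the study, the authors trimmed reads with Trimmomatic, used HISAT2 for alignment to GRCm38 and featureCounts for counting, and the deposited values are raw counts per Entrez gene. Annotation release, strand setting and multimapper handling are not given in the sources used here. From the deposited edgeR comparison table only identifiers and symbols were read, not its fold changes and p-values.

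The counts were analysed in R 4.3.3 with edgeR 4.0.16 (TMM, glmQLFit and glmQLFTest with robust = TRUE, genes with CPM over 0.2 in at least 4 libraries, prior count of 0.125 for fold changes, Benjamini-Hochberg adjustment over all genes tested), and with DESeq2 1.42.0 as an alternative. The standard error was derived from the log2 fold change and its F value, as its size over √F. Exon lengths came from GENCODE annotation of GRCm38, coordinates and start regions from RefSeq GRCm38.p6. All 5 members had a start region. Tested on simulated counts for this comparison, edgeR recovered 200 of 200 genes changed 4-fold among 16658, with 3 false calls. The changed genes were drawn from those with a mean of at least 5 CPM. Smaller changes and genes below that level, such as Edaradd, were not covered.

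The members, gene lists and tests were chosen with earlier results of these data known. Named are the members, Ezh2, the 3 nearest tested X-linked genes on each side, and the 5 genes most like Eda2r. Of the 5 related lists, genes past both thresholds or the 4 smallest p-values among those adjusted under 0.05 are named (otherwise the smallest p and the most abundant gene). Some cell type markers and further X-linked genes were named outside this rule. A few X-linked genes that were tested are not reported here. Alternatives were RLE scaling, DESeq2, no filter or a CPM filter of 1, the replicate number as a block, each library left out in turn, and cKO 4 alone. The replicates are separate samples by their labels, and where they were not separate animals, p-values measure technical spread. No library pair agreed within sampling noise. Intervals of read counts cover counting error only.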

Additional observations from a re-analysis of the deposited data

How the results depend on the processing

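Of the 70 values that the alternatives gave for the log2 fold changes of the 5 members, 69 moved by less than 1 SD between replicates, and the exception was Eda2r at -0.88 with cKO 4 alone against the controls. Leaving out each library in turn, the log2 fold change ranged from -1.46 to -1.19 for Eda2r, -0.11 to 0.01 for Eda, -0.01 to 0.07 for Edar, 0.21 to 0.51 for Edaradd and -0.16 to -0.08 for Tnfrsf19. Genes past both thresholds numbered 217, against 139 with a filter of CPM over 1, 22 with cKO 4 alone, and 142 (without cKO 2) to 336 (without cKO 4) when a library was left out, with 143 without control 1. For listed genes with an adjusted p under 0.05, EDA signal transduction went from 1 to 0 without a filter, with the replicate block and with cKO 4 alone, and to 0 to 1 when a library was left out. The p53 targets went from 0 to 2 with DESeq2 and to 2 with the replicate block, and to 0 to 1 when a library was left out. With cKO 4 alone the placode genes went from 3 to 0 and the other TNF receptors from 2 to 0, and leaving out a library gave 0 to 3 for these receptors, with 3 without cKO 4. A lone sample is assumed to vary like the other group. The causes were not tested. Replicate numbers are shared between genotypes in the labels, but same-numbered libraries deviated together with r of 0.07, 0.16, -0.04 and 0.26, so they were not taken as pairs, and the block gave 253 genes past both thresholds and -1.30 for Eda2r. Not every library correlated best with its own number. With 138 to 229 counts of Edar per library and 4 libraries a group, changes of Edar inside its 95% interval of -0.22 to 0.28 were not excluded.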
